A study of Homo sapiens with 12 samples.

Results

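RNA of H460 cells treated with cytarabine was compared with RNA of untreated H460 cells on 2 two-channel arrays, of 12 arrays in the series. The 2 arrays were chosen by their labelled treatment, and no measured value entered that rule. Earlier results of these data were known when the arrays and the gene lists were chosen. H460 is a human lung cancer line known to carry wild-type p53. Cytarabine was given at 0.2 µM for 24 h, and on both arrays the treated RNA lay in channel 1 and the untreated RNA in channel 2. The other arrays hold the same line after 24 h with cisplatin at 5 µM, paclitaxel at 5 nM or cytochalasin D at 0.2 µM (2 arrays each, with the same channel orientation) or with 5-fluorouracil (5-FU) at 1 µM (4 arrays in both orientations), each beside untreated RNA. Nothing in the labels tells separate cultures from repeat hybridisations of the same RNA, nor whether the drugs had a common untreated sample, so p-values measure only the spread between these arrays, which may be technical.

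Cytarabine is an analogue of deoxycytidine. It enters cells through nucleoside carriers, is phosphorylated to a triphosphate by the nucleoside salvage enzymes, and is built into DNA during S phase, where it slows the replicative polymerases. Stalled forks activate the ATR and CHK1 checkpoint, and in many cells with intact p53 a lasting stall also raises p53 target transcripts. The drug is best known for its use in leukaemia, and solid tumour lines vary in their response to it.

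Each value is the deposited log ratio of a probe, taken as log2, centred on the median of its array and read as treated over untreated. A value of 0 therefore means that a gene kept its place relative to the other genes of the array, and a fold applies to that place and not to an absolute amount. In bulk RNA, fewer cells of a type and less RNA per cell cannot be told apart. The direction is likely, not stated: it was set so that MDM2 and the p53 target list are positive in 5-FU, where MDM2 averaged 1.48 and the median of 20 list members was 0.21. Cisplatin, hybridised in the same orientation as cytarabine, had MDM2 at 2.75 and 2.57 and CDKN1A at 3.12 and 4.20 under that direction. The cytarabine arrays hold 7299 and 6989 values of 8170 probes. Their spread was wider, with SDs of 0.428 and 0.466, than that of the cisplatin, paclitaxel and cytochalasin D arrays, with SDs of 0.331 to 0.368, and 6 arrays of those 3 drugs lacked 6.44 to 8.53% of probes against 10.7 and 14.5% on the cytarabine arrays.

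On the 2 cytarabine arrays more transcripts were called lower than higher, and the falls were larger, but the excess of falls was not present with a channel term (482 higher and 462 lower) or over features with all 12 values (350 and 348). Of 6636 features (genes, or probes without a gene name) with both values, 247 rose (3.72%) and 639 fell (9.63%) at a Benjamini-Hochberg adjusted p under 0.05 by limma's test of the ratio against 0. Of the 4678 named genes among them, 172 rose and 459 fell. The shares of 3.72% and 9.63% are the background for the list counts of this test below. Counts near these shares are not a result about a list. Rises of at least 1 on the log2 scale numbered 5 and falls of that size 251, and 43 features fell by 2 or more while none rose by as much. The 2 arrays gave similar values, with Pearson's r of 0.821 across features, which are not independent replicates. An exact sign-flip test over 2 arrays cannot give a p below 0.5, so the calls rest on limma's moderated spread. With the spread pooled over the 8 arrays of 4 drugs, 857 rose and 1111 fell (29.7% either way), so a small change without a call is not shown to be absent.

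**Figure D1:**
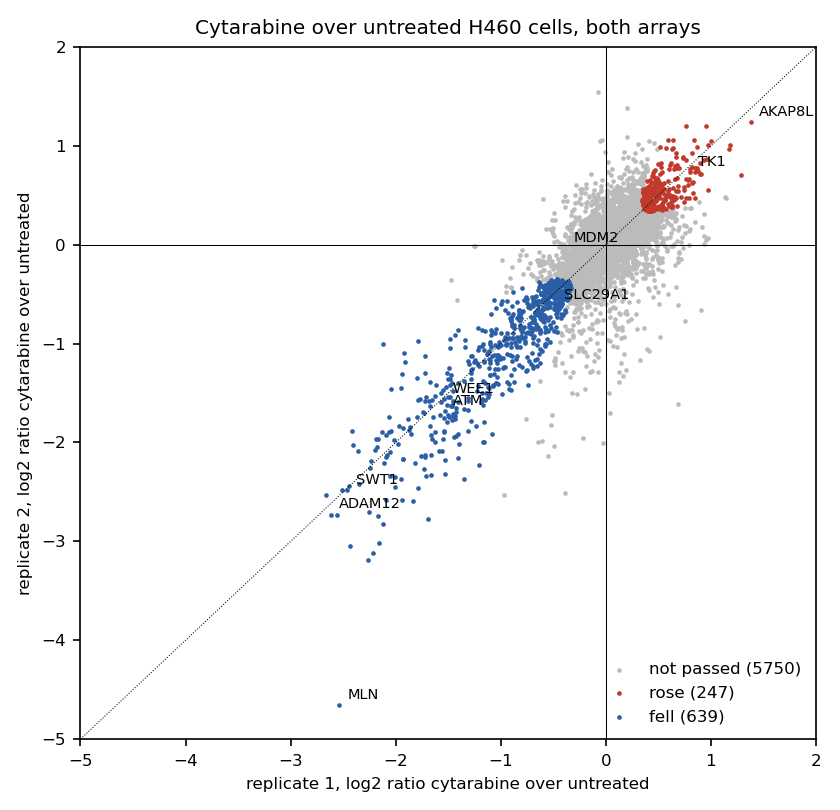
Log2 ratio of cytarabine over untreated on replicate 1 (x axis) and replicate 2 (y axis) for each feature with both values, with the 247 that rose in red, the 639 that fell in blue and the rest in grey. The cloud of falls reaches below -2 on both arrays, whereas AKAP8L, the named gene with the largest rise, lies at 1.38 and 1.24.

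Treated RNA lay in channel 1 on both arrays, so a bias of the channel and an effect of the drug cannot be told apart from these arrays alone. The 5-FU arrays, in both orientations, allow the bias to be fitted for 4734 features: 482 (10.2%) were then called higher and 462 (9.76%) lower, together 19.9%, and 138 of the 189 rises and 256 of the 337 falls tested there kept their call. Falls were also the features that the 5-FU arrays measured least often. At least 1 of the 4 5-FU values was missing for 64.6% of the features that fell, 39.3% of those that rose and 44.4% of those that did not pass, and for 203 of the 251 falls of at least 1. The part of weak signal in these falls was not tested. The median of the falls was also below 0 in the other drugs: over the 639 falls the median log2 ratio was -0.81 in cytarabine, -0.42 in cisplatin, -0.51 in paclitaxel and -0.50 in cytochalasin D, and over the 247 rises it was 0.50 in cytarabine, -0.035 in cisplatin, 0.17 in paclitaxel and 0.13 in cytochalasin D. The members were chosen on the cytarabine values, so these medians are a description.

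Cytosolic ribosomal protein genes were the list with the highest share of falls. They encode the structural proteins of the 40S and 60S subunits, and many of their transcripts start with a run of pyrimidines, the terminal oligopyrimidine tract through which their translation is regulated. Of 13 genes measured, 6 fell, none rose, and 12 were below 0 on both arrays. Their median log2 ratio was -0.36, against 0.0078 over all features tested. RPS23 had -0.52 and -0.52 on the 2 cytarabine arrays (mean -0.52, SE 0.068, n = 2, 1.43-fold lower, adjusted p = 0.0266). RPS3A had -0.46 and -0.59 (mean -0.52, adjusted p = 0.0318) and RPS4X had -0.46 and -0.51 (mean -0.48, adjusted p = 0.0311). Both arrays lay well below 0 for each of these 3 genes of the small subunit.

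In the large subunit, RPL17 had -0.45 and -0.44 (adjusted p = 0.0346), RPL12 had -0.48 and -0.42 (adjusted p = 0.035) and RPL11, whose protein also binds MDM2, had -0.38 and -0.38 (adjusted p = 0.0448). The call of RPL12 was lost when either array was left out (adjusted p = 0.0674 without replicate 1 and 0.0638 without replicate 2). RPS20, at -0.40 and -0.33, and RPL10A, at -0.39 and -0.32, missed the threshold with adjusted p of 0.0533 and 0.0567. The remaining 5, RPL3, RPL14, RPL28, RPL37A and RPS15, averaged between -0.15 and -0.089. All 13 genes had all 4 5-FU values, and with the channel term 9 of the 13 fell.

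Values in the other drugs lay closer to 0. The median over the 13 genes was -0.36 in cytarabine, -0.015 in cisplatin, -0.054 in paclitaxel and -0.034 in cytochalasin D. Set against the mean of cisplatin, paclitaxel and cytochalasin D on 8 arrays, which removes a channel bias common to them, 7 of 13 ribosomal protein genes were lower in cytarabine and none higher, in a comparison that called 532 of 6518 features lower (8.16%) and 328 higher (5.03%). RPS23 was at -0.52 and -0.52 in cytarabine, against -0.10 and -0.21 in cisplatin, -0.0086 and 0.0043 in paclitaxel and 0.041 and 0.0022 in cytochalasin D, and the difference from the 3 drugs was -0.47 (SE 0.064, adjusted p = 0.00898). RPS4X was at -0.46 and -0.51 in cytarabine, against -0.078 and 0.16 in cisplatin, -0.12 and -0.07 in paclitaxel and -0.031 and -0.045 in cytochalasin D (difference -0.45, adjusted p = 0.0166). For both genes the cytarabine arrays lay below every array of the other drugs. Drug by drug, 7 of 13 were lower against cisplatin, 2 against cytochalasin D and none against paclitaxel, in comparisons that called 14.1%, 2.44% and 0.0153% of all features lower. The count of 7 was 2 without cytarabine replicate 1, 0 without replicate 2 and 2 after arrays were scaled to the same spread, with a median difference of -0.28, -0.35 and -0.27 in these settings against -0.32.

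**Figure D2:**
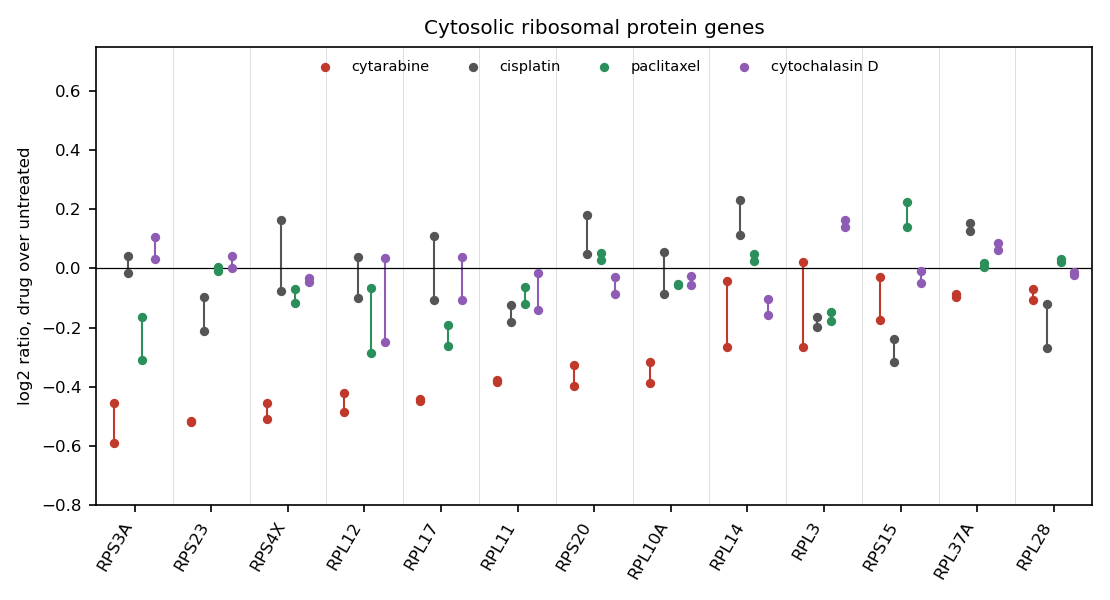
Log2 ratio of drug over untreated (y axis) for the 13 cytosolic ribosomal protein genes (x axis, ordered by their cytarabine mean), with a point per array, a line joining the 2 arrays of a drug, and cytarabine at the left of each gene. For the 8 genes from RPS3A to RPL10A, and for RPL37A, the cytarabine points lie below all points of cisplatin, paclitaxel and cytochalasin D.

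The sequences around the annotated starts of the 6 genes that fell are shown because the pyrimidine run at the first base is the feature that many ribosomal protein transcripts share. They are RefSeq's (GRCh38.p14), 20 bases before the start and 20 from it, and capitals mark the unbroken run of C and T that includes the first transcribed base on the gene's own strand.
RPS23 (chr5:82278335-82278374, minus strand): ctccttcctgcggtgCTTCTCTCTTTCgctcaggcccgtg
RPS3A (chr4:151099608-151099647, plus strand): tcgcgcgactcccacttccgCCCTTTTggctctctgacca
RPS4X (chrX:72277229-72277268, minus strand): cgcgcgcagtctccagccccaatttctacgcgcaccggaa
RPL12 (chr9:127451387-127451426, minus strand): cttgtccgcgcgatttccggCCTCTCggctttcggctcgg
RPL17 (chr18:49492446-49492485, minus strand): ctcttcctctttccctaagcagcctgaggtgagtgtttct
RPL11, upstream start (chr1:23691759-23691798, plus strand): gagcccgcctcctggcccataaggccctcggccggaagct
RPL11, downstream start (chr1:23691786-23691825, plus strand): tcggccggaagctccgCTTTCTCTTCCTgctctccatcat
A run of at least 5 was present at a start of 4 of these 6 genes, of 8 of the 12 measured ribosomal protein genes with an entry, and of 11.9% of all 27305 genes with one. The run may begin before the start, as for RPS23 and the downstream start of RPL11, and a gene counts by its longest run. The count is therefore not of transcripts that begin with such a tract. RPS4X and RPL17 show none at the starts listed, which says only that the run is not at these bases.

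Of the translation factors, which act on the same subunits, 2 of 23 fell and none rose, with a median of -0.20. EIF3E, a subunit of the initiation factor eIF3, had -0.42 and -0.48, and EIF4A2, an RNA helicase of the cap complex, had -0.40 and -0.52. Neither call held with the channel term (adjusted p = 0.991 and 0.0804), and that of EIF4A2 was also lost without replicate 1 (0.0629) and without replicate 2 (0.157).

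Among genes that carry and activate nucleosides, the carrier SLC29A1 was called lower and the thymidine kinases TK1 and TK2 higher, and most members did not pass. Of 14 members measured, TK1 and TK2 rose, SLC29A1 fell and 11 did not pass, with a median of -0.0090. SLC29A1, the equilibrative carrier through which cytarabine enters most cells, had -0.48 and -0.62 (mean -0.55, SE 0.076, 1.46-fold lower, adjusted p = 0.0292). Both arrays were below every array of the other drugs, which had 0.058 and -0.15 in cisplatin, -0.16 and -0.17 in paclitaxel and -0.24 and -0.31 in cytochalasin D. The difference from the 3 drugs was -0.39 (adjusted p = 0.0243), and that call was lost without cytarabine replicate 1 (0.0531), without replicate 2 (0.146), without paclitaxel replicate 2 (0.0504) or without either cytochalasin D array (0.0554 and 0.0512), and after scaling (0.101). The second equilibrative carrier, SLC29A2, had 0.038 and 0.12 and did not pass.

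TK1, the cytosolic thymidine kinase of S phase, had 0.80 and 0.74 in cytarabine (mean 0.77, SE 0.069, 1.7-fold higher, adjusted p = 0.0123), against 0.60 and 0.82 in cisplatin, 0.33 and 0.19 in paclitaxel and -0.45 and -0.11 in cytochalasin D. The cytarabine and cisplatin arrays overlap, and both stand above those of paclitaxel and cytochalasin D. The mitochondrial kinase TK2 had 0.59 and 0.51 (adjusted p = 0.0254). Cytidine deaminase, CDA, which inactivates cytarabine, had -0.17 and -0.19 (adjusted p = 0.16), and NT5C2, a nucleotidase that removes its phosphate, had -0.04 and -0.10 (adjusted p = 0.518). DCK, the kinase that takes the first phosphorylation step, has no pair of values here. The members ADA, ADK, APRT, DGUOK, NME2, NT5E, TYMP and UPP1 averaged between -0.21 (NME2, 0.058 and -0.48) and 0.22 (UPP1, 0.24 and 0.20).

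In nucleotide synthesis, 2 of 13 genes fell and none rose, with a median of -0.18. TXNRD1, a thioredoxin reductase that feeds electrons towards ribonucleotide reductase, had -0.82 and -0.73 in cytarabine (adjusted p = 0.0128) and a mean of -0.80 in cisplatin. MTHFD2, of mitochondrial folate metabolism, had -0.52 and -0.36 (adjusted p = 0.0446), a call lost without replicate 1 (0.0601) and with the channel term (0.543). Thymidylate synthase, TYMS, had -0.27 and -0.24 and did not pass (adjusted p = 0.0939).

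Replication fork genes stayed close to 0 as a list. Of 29 measured, 2 rose and 1 fell, a share near the background, with a median of 0.064. PRIM1, the catalytic subunit of primase, had -0.84 and -0.95 in cytarabine (1.86-fold lower, adjusted p = 0.0109), against -0.25 and -0.36 in cisplatin, -0.52 and -0.55 in paclitaxel and -0.88 and -1.07 in cytochalasin D. Its cytarabine values overlap those of cytochalasin D and lie below those of cisplatin and paclitaxel. The flap nuclease FEN1 had 0.45 and 0.55 and the clamp loader subunit RFC2 had 0.39 and 0.39. Both of these calls depended on the setting: FEN1 lost it without replicate 2 (adjusted p = 0.0897) and with the channel term (0.575), and RFC2 without replicate 1 (0.0603), without replicate 2 (0.0822) and with the channel term (0.412).

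Called cell cycle regulators included rises and falls, in numbers near the shares over all features (3.72% rose and 9.63% fell). Of 29 genes of G2 and mitosis, 2 rose and 4 fell (5 and 4 of 23 with the channel term), with a median of -0.039, and of 19 genes of G1 and S, none rose and 2 fell, with a median of -0.066. FOXM1, a transcription factor of G2 genes, had 0.80 and 0.77 in cytarabine (mean 0.79, SE 0.068, 1.72-fold higher, adjusted p = 0.0116), against 0.018 and -0.045 in cisplatin, 0.27 and 0.084 in paclitaxel and 0.32 and 0.018 in cytochalasin D. Both cytarabine arrays were above all 6 others, and the difference of 0.67 passed (adjusted p = 0.0103, but 0.0619 without cytarabine replicate 2). The kinesin KIF2C had 0.52 and 0.82 in cytarabine (adjusted p = 0.0341), below its 1.02 and 0.92 in cisplatin.

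The mitotic kinases PLK1, AURKA and CDK1 were called lower. PLK1, which drives mitotic entry, had -0.81 and -0.74 in cytarabine (1.71-fold lower, adjusted p = 0.0123), against -0.26 and -0.058 in cisplatin, -0.48 and -0.44 in paclitaxel and -0.38 and -0.44 in cytochalasin D. AURKA, the centrosomal Aurora kinase, had -0.57 and -0.73 (adjusted p = 0.022) and overlapped its cytochalasin D values of -0.63 and -0.67. TOP2A, the topoisomerase of proliferating cells, averaged -0.55 (adjusted p = 0.0276), and CDK1 averaged -0.37, a call that was lost without replicate 2 (adjusted p = 0.0597) and with the channel term (0.829).

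Among the G1 and S genes, CCNE1, the cyclin of S phase entry, had -1.25 and -1.17 in cytarabine (mean -1.21, SE 0.071, 2.31-fold lower, adjusted p = 0.0065), against -0.066 and -0.15 in cisplatin, -0.78 and -0.36 in paclitaxel and -0.77 and -0.69 in cytochalasin D. The cytarabine arrays were the lowest of the 8, with a difference of -0.74 (adjusted p = 0.0116, but 0.062 without cytarabine replicate 2 and 0.0619 after scaling). E2F6, a repressive E2F, had -1.46 and -1.40 (adjusted p = 0.00533).

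Checkpoint genes included the largest falls of these groups. Of 16 measured, CDC25B and H2AX rose, ATM, WEE1 and MRE11 fell and 11 did not pass, with a median of -0.088. With the channel term 4 of 10 rose and 1 fell, with a median of 0.038. ATM, the kinase of the double-strand break response, had -1.53 and -1.69 in cytarabine (mean -1.61, SE 0.078, 3.05-fold lower, adjusted p = 0.00533), against -0.71 and -0.86 in cisplatin, -1.44 and -1.16 in paclitaxel and -1.28 and -1.31 in cytochalasin D. WEE1, the kinase that holds CDK1 inactive, had -1.54 and -1.56 in cytarabine (2.93-fold lower, adjusted p = 0.00506), against -0.82 and -1.10 in cisplatin, -1.49 and -1.10 in paclitaxel and -1.27 and -0.89 in cytochalasin D. Both genes were well below 0 on every one of the 8 arrays, and the cytarabine arrays were the lowest. ATM was lower than in the 3 drugs by a difference of -0.48 (adjusted p = 0.0222, but 0.133 without cytarabine replicate 2 and 0.419 after scaling), and WEE1 was not called (adjusted p = 0.0839). Of the 4 5-FU arrays, 3 hold a value for ATM, 1 for MRE11 and 0 for WEE1.

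MRE11, a nuclease of the break sensor complex, had -0.61 and -0.76 in cytarabine (adjusted p = 0.0202), against 0.26 and 0.043 in cisplatin. CDC25B, a phosphatase that activates CDK1, had 0.55 and 0.37 (adjusted p = 0.0445, but 0.0903 without replicate 1), and H2AX, the histone that is phosphorylated at breaks, had 0.39 and 0.45 (adjusted p = 0.0387, but 0.0503 without replicate 2). TIMELESS, of the fork protection complex, missed the threshold at 0.38 and 0.33 (adjusted p = 0.0545). The other 10, CDC25A, CDC25C, HUS1, MDC1, NBN, PRKDC, RAD1, RAD9A, TOPBP1 and TP53BP1, averaged between -0.27 (CDC25A) and 0.22. PRKDC averaged -0.16 here and 0.74 with the channel term.

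**Figure D3:**
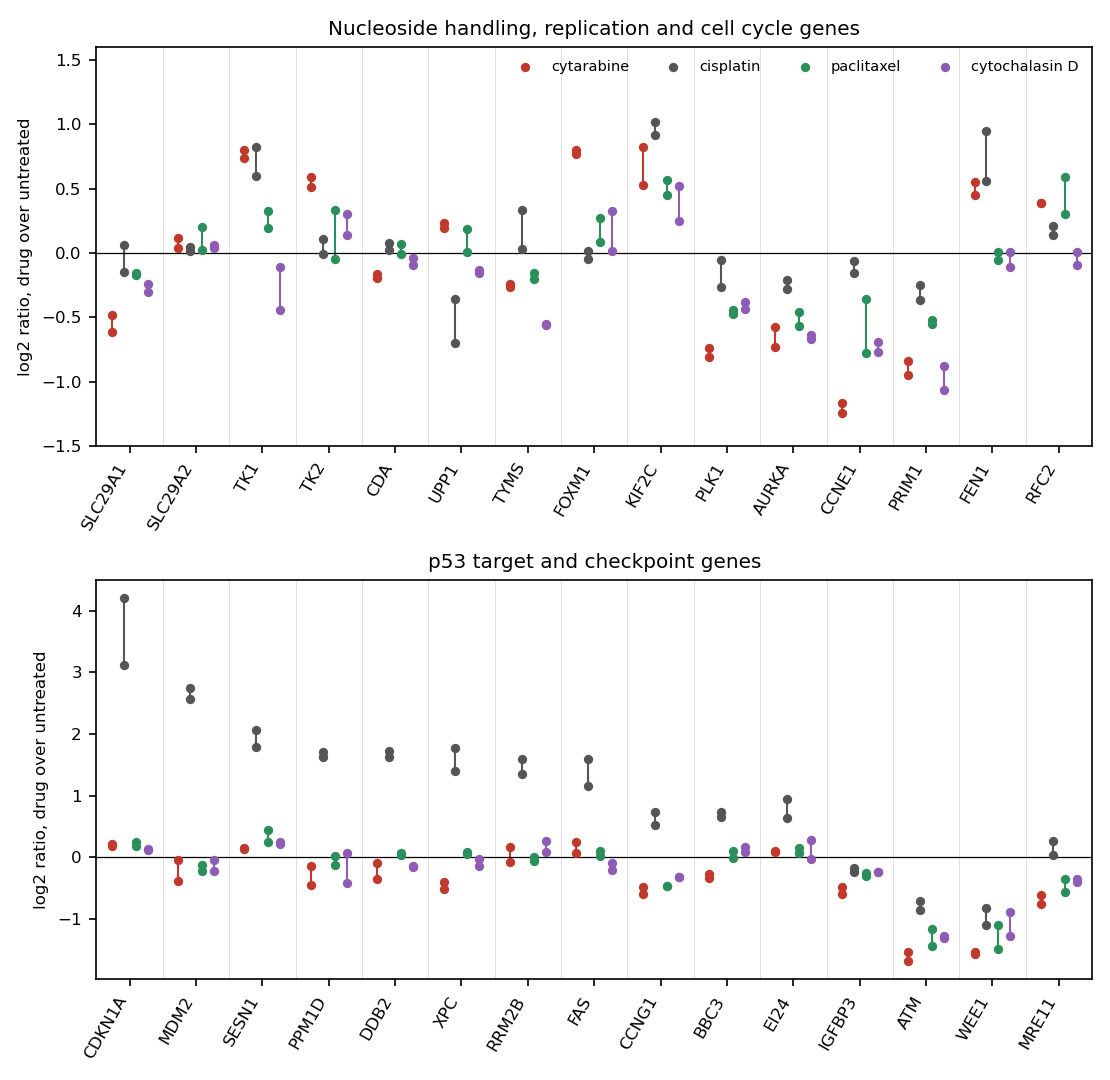
Log2 ratio of drug over untreated (y axis) on each array for nucleoside, replication and cell cycle genes (upper panel) and for p53 target and checkpoint genes (lower panel), cytarabine at the left of each gene and a line joining the 2 arrays of a drug. In the lower panel cisplatin lies well above 0 from CDKN1A to EI24, whereas cytarabine lies near or below 0 for them.

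No transcriptional target of p53 was called higher by the test of the 2 cytarabine arrays, which called 3.72% of all features higher. With 20 members measured, a lack of rises is near that share and is not a result about the list. Of 20 measured, 3 fell and 17 did not pass, with a median of -0.022. With the pooled spread and with the channel term 1 rose, TNFRSF10C, a decoy receptor of TRAIL (adjusted p = 0.0098 and 0.0219). These fits called 12.9% and 10.2% of all features higher. CDKN1A, the p21 inhibitor of cyclin-dependent kinases, had 0.19 and 0.21 in cytarabine (adjusted p = 0.133), against 3.12 and 4.20 in cisplatin, 0.24 and 0.17 in paclitaxel and 0.12 and 0.14 in cytochalasin D. MDM2, the ubiquitin ligase that restrains p53, had -0.38 and -0.04 in cytarabine (adjusted p = 0.258), against 2.75 and 2.57 in cisplatin, -0.22 and -0.12 in paclitaxel and -0.22 and -0.052 in cytochalasin D. For both genes the cytarabine arrays lay in or near the range of paclitaxel and cytochalasin D, and the cisplatin arrays stood apart above them.

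DDB2 and XPC encode proteins that recognise ultraviolet lesions. DDB2 had -0.36 and -0.093 in cytarabine, against 1.63 and 1.72 in cisplatin. XPC had -0.52 and -0.40 in cytarabine, against 1.40 and 1.77 in cisplatin, and fell relative to untreated cells (adjusted p = 0.0386), but not without replicate 1 (0.0842) or replicate 2 (0.0543). CCNG1, a cyclin that takes part in the feedback on p53, had -0.48 and -0.59 (adjusted p = 0.0285), and IGFBP3, an IGF-binding protein, had -0.60 and -0.48 (adjusted p = 0.0289). The other 14, BBC3, CCNG2, CYFIP2, EI24, FAS, PMAIP1, PPM1D, RRM2B, SESN1, TNFRSF10B, TNFRSF10C, TOB1, TP53I11 and TP53I3, averaged between -0.31 (BBC3) and 0.27 (TNFRSF10C). SESN1 had 0.13 and 0.15 in cytarabine, against 1.79 and 2.06 in cisplatin, and PPM1D had -0.46 and -0.14 in cytarabine, against 1.71 and 1.62 in cisplatin. The PPM1D probes disagreed in cytarabine, with means of 0.053 and -0.38 and a probe with a value on replicate 1 alone.

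Against cisplatin alone, in a comparison that called 916 of 6518 features lower in cytarabine (14.1%) and 612 higher (9.39%), 12 of 19 p53 targets were lower in cytarabine and none higher. Against paclitaxel none passed and against cytochalasin D 1 was lower, shares close to those over all features (0.0153% and 2.44% lower), so nothing about the p53 targets follows from them. Against the mean of the 3 drugs 10 were lower, among them MDM2 (difference -0.99, adjusted p = 0.00653), XPC (-0.98, 0.00643), DDB2 (-0.75, 0.00653) and BBC3, which encodes PUMA (-0.59, 0.00685). These 4 kept an adjusted p under 0.05 in every alternative fit run, and each of those fits kept a cisplatin array. All 4 differences are below a minimum size of 1. The MDM2 difference was -2.87 against cisplatin, -0.042 against paclitaxel and -0.075 against cytochalasin D. For XPC these were -2.04, -0.53 and -0.37. The count of 10 was 6 without cytarabine replicate 1, and it was 5 without replicate 2 and after scaling. Of 4 regulators of p53 measured, none passed.

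Chaperone genes held several falls and no rise. Of 23 heat shock proteins, chaperonins and co-chaperones, 7 fell and none rose, 18 were below 0 on both arrays, and the median was -0.22. Over all features tested 9.63% fell and 3.72% rose. The median of the list was also below 0 in paclitaxel (-0.23), cytochalasin D (-0.19) and cisplatin (-0.052). HSP90B1, the HSP90 of the endoplasmic reticulum, had -0.67 and -0.80 in cytarabine (1.67-fold lower, adjusted p = 0.0159), against -0.18 and -0.27 in cisplatin, -0.38 and -0.30 in paclitaxel and -0.20 and -0.20 in cytochalasin D. HSPA8, the constitutive HSP70, had -0.43 and -0.74 in cytarabine (adjusted p = 0.045), against 0.26 and 0.41 in cisplatin, -0.51 and -0.42 in paclitaxel and 0.37 and 0.38 in cytochalasin D. HSP90B1 was lowest on the cytarabine arrays, whereas HSPA8 overlapped paclitaxel and was above 0 in cisplatin and cytochalasin D.

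The mitochondrial chaperonin HSPD1 had -0.66 and -0.66 (adjusted p = 0.0157) and HSPA4, an HSP110 relative, had -0.47 and -0.54 (adjusted p = 0.0289). The calls of HSPA8, HSPD1 and HSPA4 were lost with the channel term (adjusted p = 0.0564, 0.111 and 0.483). The other falls were HSP90AB1 at -0.47 (adjusted p = 0.037, but 0.0526 without replicate 1), DNAJB4 at -0.42 and the CCT subunit CCT5 at -0.41.

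Genes of the amino acid response were split. Of 22, 3 rose and 5 fell, with a median of -0.012. CEBPB, a transcription factor of stress and inflammation, had 0.59 and 0.41 in cytarabine (adjusted p = 0.0385), against -0.51 and -0.58 in cisplatin, 0.35 and 0.20 in paclitaxel and -0.079 and -0.32 in cytochalasin D, and its difference of 0.66 (adjusted p = 0.0103) kept an adjusted p under 0.05 in every alternative fit run. The CEBPB difference is below a minimum size of 1. Asparagine synthetase, ASNS, had -0.44 and -0.55 (adjusted p = 0.0331), and NARS1, which charges asparagine to its tRNA, had -0.60 and -0.63 (adjusted p = 0.019). ASNS averaged -0.49 in cytarabine, against -0.86 in cisplatin. The seryl-tRNA synthetase SARS1 rose, at 0.43 and 0.46 (adjusted p = 0.035), and the cystine carrier SLC7A11 fell, at -0.45 and -0.44 (adjusted p = 0.0346). PYCR1 was called higher at 0.38, and EPRS1 and IARS1 lower at -0.66 and -0.45. PYCR1 and IARS1 were not called without replicate 2 (adjusted p = 0.0656 and 0.0797), nor PYCR1 and EPRS1 with the channel term (0.435 and 0.285).

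Growth factor and receptor genes held both large falls and rises. Of 36 genes of the TGF-beta pathway and of secreted growth factors and their receptors, 4 rose and 8 fell (4 and 4 of 24 with the channel term), with a median of -0.066. EREG, a ligand of the EGF receptor, had -1.79 and -2.46 in cytarabine (4.36-fold lower, adjusted p = 0.0116) and FGF1 had -2.02 and -1.98 (3.99-fold lower, adjusted p = 0.00506). Both were also low in cisplatin, EREG at -1.07 and -1.53 and FGF1 at -0.87 and -1.14, and neither has a value on a 5-FU array. The receptor FGFR2 had -1.12 and -1.10 in cytarabine (adjusted p = 0.00679), against -0.33 and 0.14 in cisplatin, -0.17 and 0.40 in paclitaxel and 0.13 and -0.32 in cytochalasin D. It was low in cytarabine and on either side of 0 in the other drugs, with a difference of -1.09 (adjusted p = 0.0175, but 0.0631 without cytarabine replicate 1, 0.0896 without replicate 2 and 0.0678 after scaling).

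The receptors TGFBR2, at -1.02, ACVR1, at -0.98, and TGFBR1, at -0.51, and the procollagen protease BMP1, at -0.66, fell as well. The call of TGFBR1 was lost without replicate 1 (adjusted p = 0.152) and without replicate 2 (0.131). IGFBP6, at 0.81, VEGFB, at 0.76, the co-receptor TGFBR3, at 0.50, and the SMAD repressor SKI, at 0.41, rose. These 4 are secreted factors or modulators of receptor signalling.

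Genes of the matrix and its proteases fell in 8 of 42 and rose in 1 (4 and 3 of 29 with the channel term), with a median of -0.097. ADAM12, a membrane metalloprotease, had -2.62 and -2.73 (adjusted p = 0.00506), the collagenase MMP13 had -2.17 and -2.74 (adjusted p = 0.00736), the integrin subunit ITGB3 had -2.05 and -2.10 (adjusted p = 0.00506) and the inhibitor TIMP3 had -1.40 and -2.01 (adjusted p = 0.0148). All 4 were also below 0 on each cisplatin, paclitaxel and cytochalasin D array, ADAM12 at -2.05 and -1.73 in cisplatin and TIMP3 at -0.74 and -0.83. ADAM9, at -1.40, FN1, at -0.41, COL5A2, at -0.51, and ADAM17, at -0.39, were the other falls. COL5A2 lost its call with the channel term (adjusted p = 0.248) and ADAM17 without replicate 1 (0.161) and without replicate 2 (0.172). The rise was PLEC, which encodes the cytolinker plectin.

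Of 29 enzymes of drug and aldehyde metabolism, 7 fell and none rose, with a median of -0.022, and with the channel term 3 of 25 rose and 7 fell. The alcohol dehydrogenase ADH4 had -2.11 and -2.20 (adjusted p = 0.00506), the glucuronosyltransferase UGT1A10 had -1.88 and -1.87 (adjusted p = 0.00506), the acetyltransferase NAT2 had -1.52 and -1.79 (adjusted p = 0.00662) and the fatty aldehyde dehydrogenase ALDH3A2 had -0.94 and -0.89 (adjusted p = 0.00898). In cisplatin these 4 averaged -0.93, -1.07, -0.98 and -0.54, again below 0. GCLM, AKR1C1 and PRDX3 made up the rest at -0.46, -0.42 and -0.40. The calls of AKR1C1 and PRDX3 were lost with the channel term (adjusted p = 0.189 and 0.954) and that of AKR1C1 without replicate 2 (0.0501), and the probes of GCLM disagreed, at -0.86 and -0.062.

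The 10 named genes with the largest rises were AKAP8L, LY96, GRIK5, NHERF2, PLEC, GRK5, S1PR4, FASTK, NCAPD3 and PCDH8, with means from 0.86 to 1.31. AKAP8L, a nuclear relative of the A-kinase anchoring proteins, had 1.38 and 1.24 in cytarabine (mean 1.31, SE 0.077, 2.48-fold higher, adjusted p = 0.0065), against -0.51 and -0.25 in cisplatin, 0.54 and 0.15 in paclitaxel and 0.20 and 0.22 in cytochalasin D. LY96, the co-receptor of TLR4 for lipopolysaccharide, had 1.18 and 1.01 in cytarabine (adjusted p = 0.00851), against 0.049 and -0.042 in cisplatin, 0.18 and 0.28 in paclitaxel and 0.15 and -0.036 in cytochalasin D. GRIK5, a kainate receptor subunit, had 0.95 and 1.21 in cytarabine (adjusted p = 0.0117), against -0.20 and 0.072 in cisplatin, 0.27 and 0.21 in paclitaxel and 0.10 and -0.10 in cytochalasin D. In all 3 genes the cytarabine arrays stood above every other array, and their differences from the 3 drugs kept an adjusted p under 0.05 in every alternative fit run (1.25, 1.00 and 1.02, adjusted p = 0.00538, 0.0043 and 0.00643). The LY96 difference, 0.9992, is just below a minimum size of 1.

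PLEC had 0.97 and 1.01 (adjusted p = 0.00768), the receptor kinase GRK5 had 0.77 and 1.20 (adjusted p = 0.0267), FASTK had 0.94 and 0.85 (adjusted p = 0.0101) and NCAPD3, a condensin II subunit, had 0.82 and 0.93 (adjusted p = 0.0114). The call of NCAPD3 was lost without replicate 2 (adjusted p = 0.0565), as was that of the sphingosine 1-phosphate receptor S1PR4 (0.0579), which had 0.86 and 0.98. The PDZ scaffold NHERF2 had 1.29 and 0.71 and the protocadherin PCDH8 had 0.90 and 0.83. These 10 largest rises were picked for high values on the same cytarabine arrays, so their passes against the other drugs are a description. Of the 9 tested against the 3 drugs all passed, but 3 did after scaling, 7 without cytarabine replicate 1 and 5 without replicate 2.

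The 10 largest falls were MLN, C6, ADAM12, CEP63, TKTL1, CABS1, KMT2E, SLA, SWT1 and MMP13, with means from -3.60 to -2.45. MLN, the precursor of the gut hormone motilin, had -2.54 and -4.66, so its mean of -3.60 carries an SE of 0.54 (adjusted p = 0.0341). SWT1 had -2.46 and -2.48 in cytarabine (mean -2.47, SE 0.068, 5.55-fold lower, adjusted p = 0.00506), against -1.28 and -1.42 in cisplatin, -1.68 and -1.64 in paclitaxel and -1.42 and -1.55 in cytochalasin D. KMT2E, a chromatin regulator, had -2.51 and -2.48 in cytarabine (adjusted p = 0.00506), against -1.63 and -1.54 in cisplatin, -1.96 and -2.0 in paclitaxel and -1.57 and -1.80 in cytochalasin D. Every one of the 8 arrays lay far below 0 for these genes, and the cytarabine arrays were the lowest.

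The complement component C6 had -2.43 and -3.05, the centrosomal protein gene CEP63 had -2.56 and -2.74, TKTL1, a relative of transketolase, had -2.66 and -2.53, CABS1, a calcium-binding protein gene of spermatids, had -2.16 and -3.02, and SLA, an adaptor of lymphocyte receptors, had -2.12 and -2.83. Over the 10 falls the median of the means was -2.59 in cytarabine, against -1.39 in cisplatin, -1.75 in paclitaxel and -1.77 in cytochalasin D. All 10 passed as lower than the 3 drugs, 6 did without cytarabine replicate 2, and none did after arrays were scaled to the same spread. The 10 were picked for low values on the same cytarabine arrays, so these passes are a description. None of the 10 has all 4 5-FU values and 5 have none, and several are known from tissues other than lung. Spot intensities were not analysed here, so whether these probes were above background is unknown.

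**Figure D4:**
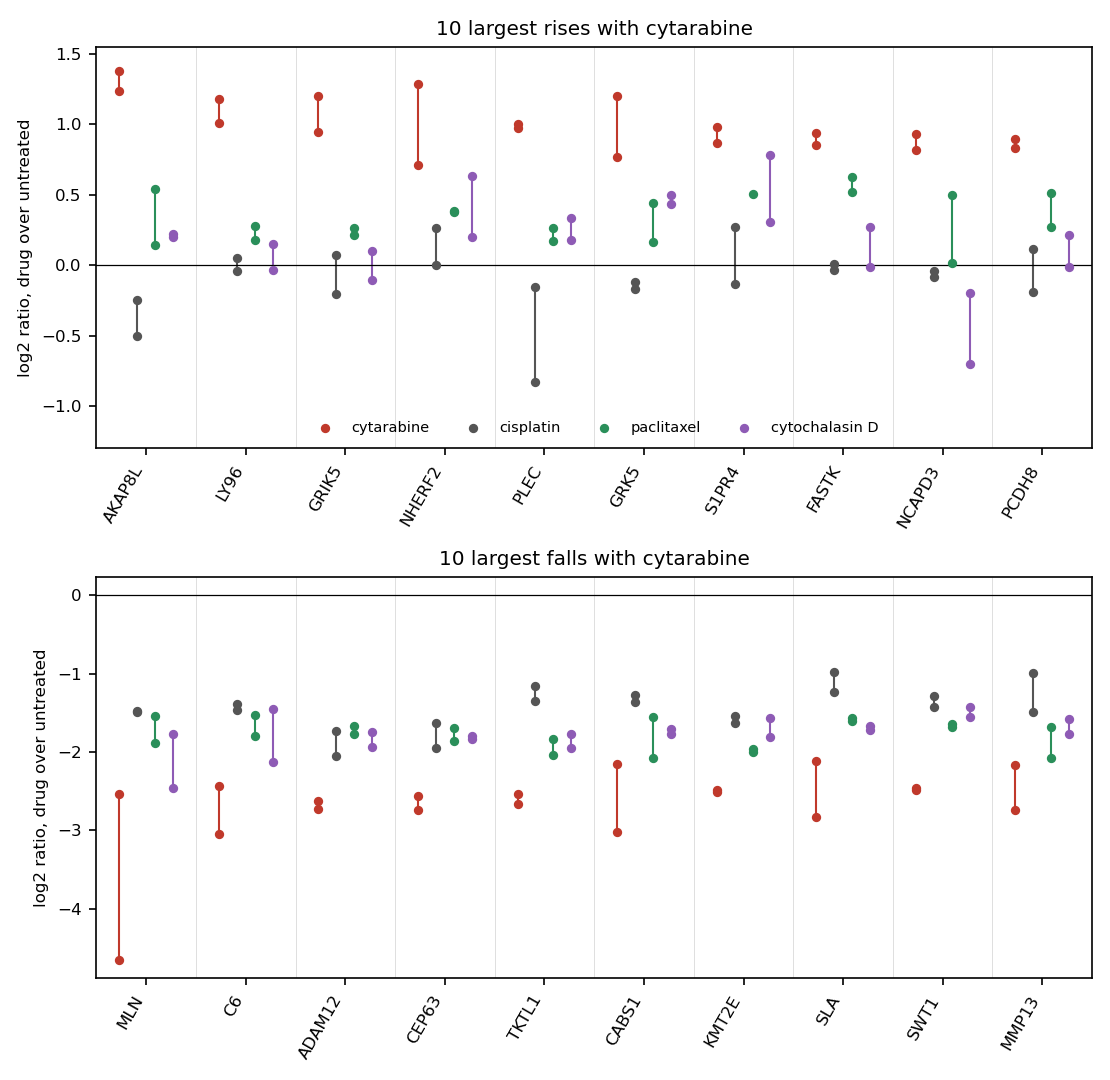
Log2 ratio of drug over untreated (y axis) on each array for the 10 largest rises (upper panel) and the 10 largest falls (lower panel) with cytarabine, cytarabine at the left of each gene and a line joining the 2 arrays of a drug. On these 8 arrays none of the falls lies above -0.98 (SLA in cisplatin), and they are deepest in cytarabine, whereas most rises are near 0 in cisplatin.

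Against the 3 drugs together, 152 of the 236 rises and 320 of the 628 falls tested passed in the same direction. Over all 6518 features 5.03% were higher and 8.16% lower. The rises and falls were called on the same cytarabine arrays, so this overlap is partly built in and is a description. The drugs differ in dose and in mode of action, and the comparison says nothing about potency. Against cytochalasin D alone 103 features were higher (1.58%) and 159 lower (2.44%), together 4.02%, and against paclitaxel alone 1 was higher (0.0153%) and 1 lower (0.0153%), together 0.0307%, although 1215 had an unadjusted p under 0.05. Without cytarabine replicate 1 the paclitaxel comparison called 69, and without any other single array it called 0 or 1. No named gene passed in all 3 pairwise comparisons.

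Genes chosen after their values were seen, because they had large differences that kept an adjusted p under 0.05 in every alternative fit run, included both directions. CCN2, a matricellular gene of mechanical signalling, was near 0 in cytarabine at -0.015 and -0.11, against -1.23 and -1.28 in cisplatin, -0.25 and -0.42 in paclitaxel and -1.95 and -1.96 in cytochalasin D (difference 1.12, adjusted p = 0.00238). TNFAIP3, an inhibitor of NF-kB, had -0.33 and -0.36 in cytarabine, against 2.01 and 2.30 in cisplatin, -0.35 and -0.25 in paclitaxel and 0.58 and 0.51 in cytochalasin D (difference -1.14, adjusted p = 0.00406). Neither gene passed in cytarabine over untreated (adjusted p = 0.583 and 0.0562). RGS2, a regulator of G-protein signalling, had -0.49 and -0.46 in cytarabine, against 1.74 and 1.62 in cisplatin, -0.39 and -0.32 in paclitaxel and -0.40 and -0.37 in cytochalasin D (difference -0.79, adjusted p = 0.0043). The kinase TNIK had 0.86 and 0.78 in cytarabine (adjusted p = 0.0116), against -0.33 and -0.30 in cisplatin, 0.26 and -0.018 in paclitaxel and 0.034 and 0.12 in cytochalasin D, and TTL, the tubulin tyrosine ligase, had 0.67 and 0.78 in cytarabine (adjusted p = 0.0149), against -0.40 and -0.67 in cisplatin, 0.30 and 0.42 in paclitaxel and -0.12 and -0.16 in cytochalasin D. TNIK and TTL were higher in cytarabine than on each of the 6 other arrays. The differences of RGS2, TNIK and TTL are below a minimum size of 1.

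Marker lists of cell types can show only a difference between treated and untreated RNA, since a ratio gives no level, so the identity of the line could not be checked from them. Of 8 epithelial markers CLDN7 rose, at 0.79 and 0.61 (adjusted p = 0.0212, but 0.16 with the channel term), and none fell. Of 21 liver markers 6 fell and none rose (median -0.054), of 20 blood cell markers 1 rose and 2 fell (median 0.10), and of 10 fibroblast and endothelial markers 1 rose and 1 fell (median 0.10). The falls among them were SERPINC1, ADH4, C8B, PZP, ITIH3 and HP, SLA and CPVL, and CDH5, at -2.21, -2.16, -2.05, -1.98, -1.67, -0.94, -2.47, -2.11 and -1.58. The call of HP was lost without replicate 2 (adjusted p = 0.0943) and with robust moderation (0.0514). The rises were CD79B, at 0.59, not called without replicate 2 (0.0851), and POSTN, at 0.45, not called without replicate 1 (0.126) or replicate 2 (0.196), whose probes disagreed. These genes belong to cell types that the labels do not name, and their part in the falls of the metabolism and matrix lists was not tested.

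**Figure D5:**
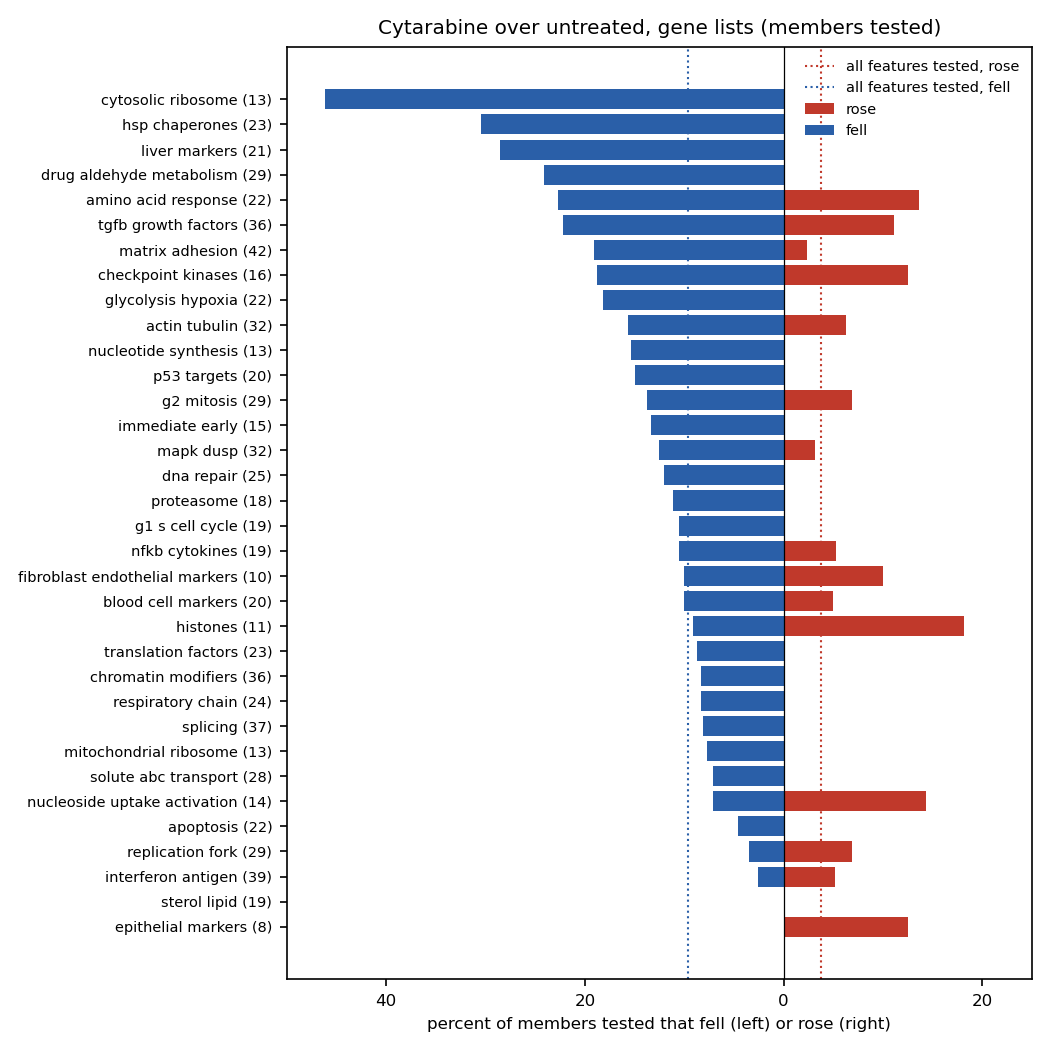
Percent of the members tested that fell (blue, left) or rose (red, right) with cytarabine for each gene list with at least 8 members tested, with the number tested in brackets and dotted lines at the shares over all features, 9.63% falling and 3.72% rising. The cytosolic ribosome, chaperones, liver markers and metabolism enzymes extend furthest to the left.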

How the data were processed

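The values are the deposited log ratios of 12 two-channel arrays, 1 column per array, and were taken as log2; per the labels, one channel holds treated and the other untreated RNA. Not given in the sources used here are the log base, the channel on top of the ratio, the normalization and any spot filter. Of 8170 probes, 5930 pair with 1 gene symbol in GEO's platform annotation, 79 with several and 2161 with none, and 3 symbols were updated. Where several probes named a gene (408 of 5498 genes), their mean on the array was used; the remaining probes stayed single, which gave 7738 features, and the median of each array was set to 0. No column of another series was present. Spot intensities were not analysed here, so neither depth nor background is known and the number of arrays limits the precision.

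Cytarabine over untreated was tested against 0 on its 2 arrays with limma 3.58.1 (lmFit, eBayes, R 4.3.3), two-sided, with Benjamini-Hochberg adjustment over 6636 features with both values. The difference from the mean of cisplatin, paclitaxel and cytochalasin D, and each pairwise difference, were fitted on 8 arrays for the 6518 features with all values. Every adjusted p printed comes from a limma fit, either of these or of the alternative named beside it. Tables and figures were made with Python 3.11.15, pandas 2.3.3, numpy 2.4.6 and matplotlib 3.10.9. The fits were tested on simulated data first. Same-numbered replicates of different drugs did not deviate together (correlations of -0.053 to 0.09), so the numbers were not taken as pairs.

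The arrays and 35 gene lists were chosen with earlier results of these data known. Named genes are the 10 largest rises and falls among called genes, up to 4 called members per list, every measured member of the nucleoside, p53 target and checkpoint lists, and MDM2, CDKN1A, TYMS, RRM1, RRM2, DCK, SLC29A1, ACTB, TUBB and GAPDH where both values exist. RRM1, RRM2, DCK and GAPDH have no such pair; ACTB averaged -0.25 and TUBB -0.13, and neither passed (adjusted p = 0.0939 and 0.252). Further called members of a list, members near the threshold and the genes picked for their difference from the other drugs were named after their values were seen. Alternatives were a spread pooled over 8 arrays, a channel term on 12 arrays, no centring, equal array spread, robust moderation, probes kept apart, other rules on missing values, a minimum size, a replicate block and leaving out each array.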

Additional observations from a re-analysis of the deposited data

Results flagged for a closer look

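For 5 of the genes named or with the largest differences from the other drugs, both cytarabine arrays had one sign and all 6 arrays of cisplatin, paclitaxel and cytochalasin D the other, with a limma difference that passed. A passing difference was part of the rule that picked these 5, so their passes are a description. Of 4587 named genes with all 8 values, 30 were above 0 in cytarabine and below 0 on the other arrays, 18 of them with a difference that passed, and 78 were the reverse, 21 of them with one. Over all 6518 features 5.03% were higher and 8.16% lower than in the 3 drugs. Genes with opposite signs were picked on the values that enter the difference, so these counts are a description. PTPA, an activator of protein phosphatase 2A, had 0.84 and 0.73 in cytarabine, against -0.35 and -0.71 in cisplatin, -0.10 and -0.43 in paclitaxel and -0.21 and -0.24 in cytochalasin D, a difference of 1.13 (adjusted p = 0.00643). DLST, a subunit of the 2-oxoglutarate dehydrogenase complex, had 1.13 and 0.49 in cytarabine, against -0.017 and -0.13 in cisplatin, -0.17 and -0.34 in paclitaxel and -0.32 and -0.14 in cytochalasin D, a difference of 0.994 (adjusted p = 0.0138), although cytarabine over untreated alone missed the threshold (adjusted p = 0.0671). AP3D1, of the AP-3 vesicle coat, had 0.47 and 0.45 in cytarabine, against -0.12 and -0.33 in cisplatin, -0.22 and -0.088 in paclitaxel and -0.54 and -0.66 in cytochalasin D, a difference of 0.789 (adjusted p = 0.00643). The differences of PTPA, DLST and AP3D1 kept an adjusted p under 0.05 in every alternative fit run, although those of DLST and AP3D1 are below a minimum size of 1.

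ENPP1, an ectonucleotidase, had 0.17 and 0.94 in cytarabine, so its arrays disagree in size, against -0.31 and -0.16 in cisplatin, -0.34 and -0.13 in paclitaxel and -0.22 and -0.15 in cytochalasin D. Its difference of 0.775 (adjusted p = 0.0358) fell to 0.39 and lost its call without cytarabine replicate 2 (0.123), and the call was also lost after scaling (0.066) and without any single array of the other drugs (0.0602 to 0.0776). GAB2, a docking protein of growth factor receptors, had -0.70 and -0.99 in cytarabine, against 0.15 and 0.031 in cisplatin, 0.13 and 0.79 in paclitaxel and 0.19 and 0.22 in cytochalasin D, a difference of -1.1 (adjusted p = 0.0123, but 0.0798 without cytarabine replicate 2).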

How the results depend on the processing

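The count of rises in cytarabine over untreated (247) moved to 857 with the spread pooled over 8 arrays, 482 with the channel term and 5 with a minimum size of 1, and leaving out a cytarabine array under the pooled spread gave 274 to 495. The count of falls (639) moved to 1111 with the pooled spread, 348 over features with all 12 values and 251 with the minimum size, and was 692 to 903 when an array was left out. Leaving out an array leaves cytarabine with 1 array, which is assumed to vary like the other drugs. The split of rises to falls was 247 to 639, but 482 to 462 with the channel term and 350 to 348 over features with all 12 values. Higher and lower counts against the 3 drugs (328 and 532) moved to 60 and 63 after scaling and to 6 and 24 with the minimum size, and to 60 to 222 and 90 to 363 without single arrays, lowest without cytarabine replicate 2. Counts either way were 1528 against cisplatin (1016 scaled, 675 to 1434 without single arrays), 2 against paclitaxel (0 scaled, 4 with probes kept apart, 0 to 69) and 262 against cytochalasin D (50 scaled, 5 to 192). The channel term turned the sign of EIF3E (0.0029), EPRS1 (0.298), H1-10 (-0.32), MAPK6 (1.37), PRDX3 (0.013), PRKDC (0.74) and PSMD14 (0.16); the cause was not tested. Of 143 called genes named or in the lists, 98 kept their call wherever tested (a minimum size aside) and 28 lost it with the channel term.

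With the replicate block, rises and falls were 828 and 1078, close to the pooled fit it extends, differences from the 3 drugs were 282 and 480, and the count against paclitaxel was 0. What signal over background limits is unknown, since no intensities were used.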

Other observations

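Several groups not described above had a few large falls, with list medians between -0.12 and -0.045. Over all features tested 9.63% fell and 3.72% rose. The counts of the respiratory chain and splicing lists are near these shares and are not a result about those lists. Of 22 genes of glycolysis and hypoxia, 4 fell and none rose (median -0.077): PDK1, which restrains pyruvate dehydrogenase, had -1.17 and -1.62 (adjusted p = 0.0137), PGK1 of glycolysis had -0.65 and -0.57 (adjusted p = 0.021), and the hypoxia factors HIF1A and EPAS1 averaged -0.65 and -0.51. HIF1A lost its call with the channel term (adjusted p = 0.136), and EPAS1 with it (0.223), without replicate 1 (0.146) and without replicate 2 (0.0774). Of 24 respiratory chain genes 2 fell (median -0.12), with NDUFV2 of complex I at -1.66 and -2.33 in cytarabine, against -0.47 and -0.79 in cisplatin, -0.52 and -0.67 in paclitaxel and -1.0 and -0.39 in cytochalasin D, and UQCRC2 at -0.41, a call lost without replicate 2 (adjusted p = 0.112). Of 37 splicing genes 3 fell (median -0.045), with SF3B1 of the U2 particle at -1.03 and -1.03 (adjusted p = 0.00736), HNRNPK at -0.51 and DDX5 at -0.60, the last not called with the channel term (0.135).

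Kinase and transcription signalling held rises and falls, in numbers near the shares over all features (3.72% rose and 9.63% fell). Of 32 MAP kinase pathway genes 1 rose and 4 fell (median 0.042), with MAP2K2 at 0.70 and 0.77 (adjusted p = 0.0137), MAPKAPK3 at -1.23 and -1.83 (adjusted p = 0.0181) and the ERK phosphatase DUSP6 at -0.89 and -1.12 (adjusted p = 0.012). RPS6KA3 averaged -0.78, with probes that disagreed, and MAPK6 averaged -0.38 but 1.37 with the channel term. Of 19 NF-kB and cytokine genes 1 rose and 2 fell (median -0.094; 4 and 1 of 16 with the channel term): NFKB1 had -1.14 and -1.5 (adjusted p = 0.0116), CXCL8 averaged -0.66 (adjusted p = 0.248 with the channel term) and CXCL3 0.42 (adjusted p = 0.0579 without replicate 2). Of 15 immediate early genes SGK1, at -1.17 and -1.38, and RGS2 fell (median -0.061). Of 39 interferon and antigen presentation genes 2 rose and 1 fell (median 0.088), namely TRIM21 at 0.82, TAP2 at 0.49 and IRF7 at -0.52, and none of these calls held without replicate 2 (adjusted p = 0.152, 0.0887 and 0.155).

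Among actin and tubulin genes 2 of 32 rose and 5 fell (median -0.13), with ACTN1 at 0.42 and 0.65 in cytarabine, against 0.077 and -0.028 in cisplatin, 0.01 and -0.11 in paclitaxel and -0.37 and -0.39 in cytochalasin D, and MAP4, which binds microtubules, at -0.80 and -0.87 (adjusted p = 0.0112). In DNA repair PMS2, at -0.83 and -0.97, FANCC, at -0.59 and -0.52, and XPC fell among 25 (median -0.0077). Of 11 histones and chromatin proteins 2 rose and 1 fell (median -0.0091), namely H2AX, H1-10 at 0.61, whose sign turned with the channel term (-0.32), and HMGB2 at -0.44 (adjusted p = 0.681 with it). The other lists held falls alone or no call: 3 of 36 chromatin modifiers (median -0.041), 2 of 18 proteasome genes (-0.098), 1 of 13 mitochondrial ribosome genes (-0.035), 2 of 28 membrane transporters (-0.021, with the drug efflux pump ABCC4 at -0.80 and -0.88), 1 of 22 apoptosis genes (0.076) and 0 of 19 sterol and lipid genes (0.012, limma). The sterol genes had 5 higher and 3 lower calls with the spread pooled over 8 arrays, a fit that called 12.9% of all features higher and 16.7% lower.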
